A study of Mus musculus with 9 samples.

Results

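The type I interferon-stimulated genes followed here are 42 genes that cells switch on in response to type I interferon, together with the STAT and IRF factors that carry the signal. They were chosen by symbol from a written list, and all 42 were found among the 20926 genes of the expression table and passed the filter on low values. The choice was made with earlier results of these data known, so shares of members beside all genes are not an independent test. The libraries came from blood leukocytes of male DBA/1 mice, labelled 7 weeks old in every group, with 3 mice in each of 3 groups. In the study 7 weeks is the age at assignment to groups, before the immunisation and the irradiation, so the mice were older when sampled. The Ctrl mice had neither arthritis nor irradiation. In the CIA group, arthritis had been raised by immunising with chick type II collagen in adjuvant (collagen-induced arthritis, which models rheumatoid arthritis), and the mice were not irradiated. The CIA+THz mice carried the same arthritis, and their swollen ankles were exposed under isoflurane to radiation of 0.1 THz, 30 min daily for 14 days. Whether the other groups were also anesthetised was not given in the sources used here. Each library is a separate mouse, RNA was taken from blood although only the ankle was irradiated, and a bulk library cannot tell a change in the share of a cell type from a change in RNA per cell.

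Type I interferons (the interferon alphas and interferon beta) bind a receptor made of IFNAR1 and IFNAR2. The receptor's kinases JAK1 and TYK2 phosphorylate STAT factors such as STAT2, which joins IRF9 in the complex ISGF3. ISGF3 binds interferon-stimulated response elements in promoters and turns on a large set of antiviral genes, whose products sense foreign nucleic acid, block translation, degrade RNA or attach the ubiquitin-like protein ISG15 to other proteins. In blood these genes are read as a signature of interferon exposure, and such a signature is known from several autoimmune diseases, including part of the patients with rheumatoid arthritis.

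Several members carry the letters of this element close to their start. A core of the response element, spelled GAAA, any 2 bases and GAAA again on either strand, was searched in the 250 bases before the RefSeq start of each gene (GRCm38.p6, which is mm10). It was found in 13 of the 31 members with a promoter entry, or 41.9%, against 936 of 27025 genes with an entry (3.5%) and 340 of the 9903 genes that were also tested (3.4%). Matches can overlap one another. The stretches below belong to members whose values are described in this section, and they are written 5′ to 3′ on the strand of the gene with the matches in capitals. RefSeq holds the reference mouse genome and not that of DBA/1.
Isg15, chr4:156200850-156200921, minus strand: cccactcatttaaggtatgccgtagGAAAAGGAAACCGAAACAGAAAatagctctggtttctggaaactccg
Oas1a, chr5:120907526-120907570, minus strand: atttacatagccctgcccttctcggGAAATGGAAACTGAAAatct
Oas1g, chr5:120887614-120887656, minus strand: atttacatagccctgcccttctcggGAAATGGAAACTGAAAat
Ifit3, chr19:34583348-34583441, plus strand: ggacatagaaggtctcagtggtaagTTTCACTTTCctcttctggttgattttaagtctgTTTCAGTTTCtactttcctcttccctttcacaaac
Trim30a, chr7:104465195-104465254, minus strand: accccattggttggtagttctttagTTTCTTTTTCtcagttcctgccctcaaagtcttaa
Isg15 held 3 overlapping matches between 78 and 57 bases before its start. Oas1a and Oas1g held the same pair of overlapping matches, 20 to 5 and 18 to 3 bases before their starts. In Ifit3 and Trim30a the matches read on the other strand, so that they appear as TTTC, 2 bases and TTTC. Ifit3b carried the same stretch as Ifit3, at chr19:34607744-34607837. No match was found in the windows of Oasl1, Oasl2, Herc6, Ifi44, Irf7, Isg20, Xaf1 and Phf11d, which says only that these letters are not in these windows. By role, 3 of the 4 IFIT genes, 3 of 5 OAS genes, 3 of 6 antiviral effectors, 1 of 3 IRF and STAT factors, 1 of 3 sensors, 2 of 5 genes of the ISG15 and ubiquitin role and 0 of 5 other induced genes with an entry held a match.

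The authors deposited FPKM (mapped fragments divided by transcript length and by the library total), which is a level per length, so members can be compared with one another. Each library was rescaled by 1 median-of-ratios factor between 0.847 and 1.24. The table holds no counts and the absolute depth is unknown, but the steps between low values put the CIA+THz libraries at 1.35 to 1.87 times the depth of Ctrl 1, against 1 to 1.10 for Ctrl and 1.01 to 1.28 for CIA. Pearson correlations across the 12366 genes tested, which are not independent replicates, were 0.934 to 0.963 within groups and 0.923 to 0.957 between groups. Markers of T cells, B cells, monocytes and neutrophils were present in every library as the leukocyte label implies, while the erythroid gene Alas2 made up 11.4% to 16.7% of the summed FPKM. Of the NK cell and plasmacytoid dendritic cell markers, Klra8 and Klk1 were listed at 0 in all 9 libraries.

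Most members were well expressed. The mean rescaled FPKM over the 9 libraries was at least 100 for 3 members, between 10 and 100 for 22, between 1 and 10 for 16 and under 1 for 1, and 39 members were above 0 in every library. Isg20, an exonuclease that degrades single-stranded RNA, and Rsad2, which encodes viperin, stood far above the rest. Isg20 was measured at 2019, 2362 and 1431 in the Ctrl libraries, at 1754, 1588 and 1664 in the CIA libraries and at 898, 1111 and 1210.2 in CIA+THz. Rsad2 had means of 452 ± 140 (SD, n = 3) in Ctrl, of 375 ± 124 in CIA and of 287 ± 46.6 in CIA+THz. These 2 genes made up between 49.8% and 76.2% of the summed level of the members in a library, and their group means were both highest in Ctrl and lowest in CIA+THz. The third member above 100 was Xaf1, an antagonist of the inhibitor of apoptosis XIAP, which ranged from 37.7 in CIA 3 to 170.0 in CIA+THz 1 and whose SD within each arthritic group (53.8 and 61.5) was larger than the distance between any pair of group means. At the other end, Phf11d, a PHD finger gene, had a mean of 0.377.

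**Figure D1:**
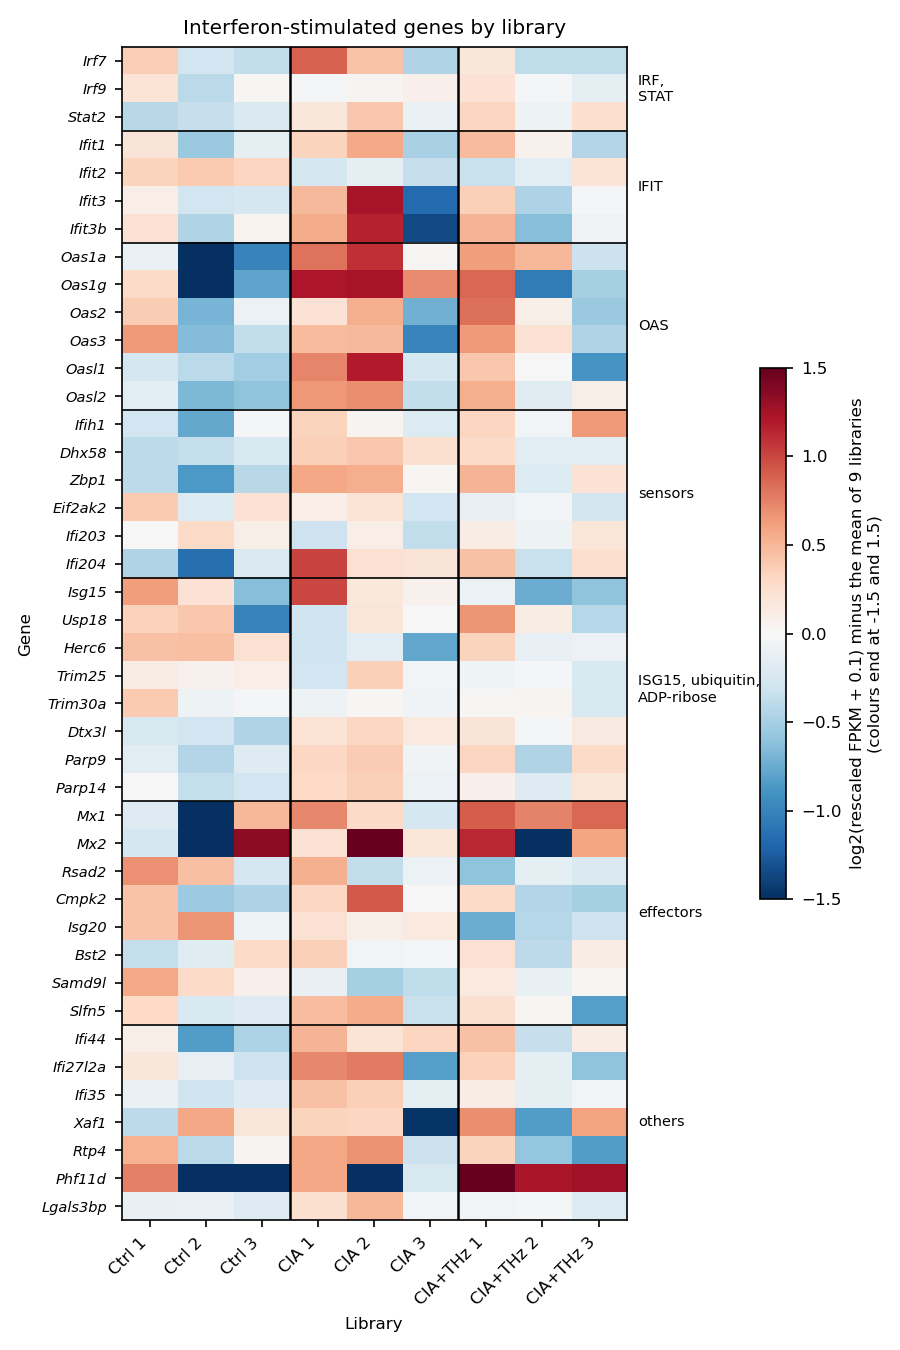
Each row is a member, each column a library, and the colour is the difference of log2(rescaled FPKM + 0.1) from the mean over the 9 libraries, with horizontal lines between roles. The OAS rows are red in CIA 1 and CIA 2 and blue in Ctrl 2, while Herc6, Ifit2 and Samd9l are blue in all 3 CIA libraries.

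In CIA against Ctrl, which sets immunised arthritic mice against controls, the members leaned upward but did not all change in the same direction. The study describes no adjuvant injection of Ctrl mice, so arthritis and immunisation cannot be told apart. Of the 42 members, 32 were higher in CIA and 10 lower, with a median log2 fold change of 0.34 on the log2(rescaled FPKM + 0.1) scale, against 49.3% of all genes higher, 50.7% lower and a median of -0.01. Past the criterion (a log2 fold change beyond 0.67 in size, with p under 0.05 before adjustment) were 7 members in the upward direction, Oas1a, Oas1g, Oasl1, Oasl2, Zbp1, Ifi204 and Ifi44, and Herc6 in the downward direction. That is 19.0% of the members beside 9.04% of all genes tested, and by direction 16.7% beside 4.79% higher and 2.38% beside 4.25% lower. Without the fold criterion, 12 members (28.6%, beside 8.85% of all genes) were higher and 3 (7.14%, beside 8.45%) lower, or 35.7% beside 17.3% in either direction. By limma 0 members had a Benjamini-Hochberg adjusted p under 0.05, beside 0.154% of all genes, and the smallest adjusted p of a member was 0.0700. The 3 libraries of CIA lay above all 3 of Ctrl for 10 members and below them for 3, beside 11.8% of all genes in each direction.

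The OAS proteins, whose catalytically active members make 2′-5′ oligoadenylate on contact with double-stranded RNA and so switch on RNase L, were the role with the most members past the criterion. All 6 had a positive fold change and 4 passed, with a median log2 fold change of 0.87. Oas1a (chromosome 5 of mm10, 120896256 to 120907521), one of the catalytic OAS1 genes, was measured at 7.03, 2.35 and 3.70 in Ctrl and at 13.3, 16.2 and 7.62 in CIA. The lowest CIA library was only just above the highest Ctrl library, and the log2 fold change was 1.55 ± 0.44 (SE) with an adjusted p of 0.160 by limma. Its neighbour Oas1g (chromosome 5, 120876142 to 120887613) was 1.06, 0.144 and 0.455 in Ctrl and 2.12, 2.15 and 1.46 in CIA. These groups did not overlap either, and the log2 fold change of 1.87 ± 0.60 was the largest of all members. Oas1a and Oas1g share sequence, since 57.6% of the 50-base windows of the longest Oas1a transcript occur in Oas1g and 54.1% the other way round, so that fragments may have been divided between them in a way that cannot be checked from FPKM.

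Oasl2 and Oasl1 encode the OAS-like proteins with ubiquitin-like ends, of which OASL1 restrains the translation of Irf7. Oasl2, the most abundant OAS gene, was 48.3, 33.7 and 35.5 in Ctrl and 84.6, 87.3 and 41.6 in CIA. Oasl1 was 5.23, 4.76 and 4.38 in Ctrl and 10.5, 14.5 and 5.23 in CIA. In both genes CIA 1 and CIA 2 were above all Ctrl libraries while CIA 3 fell among or beside the Ctrl libraries, and the log2 fold changes were 0.80 ± 0.30 for Oasl2 and 0.95 ± 0.36 for Oasl1. The other OAS members, Oas2 and Oas3, were 7.27 ± 2.64 and 31.0 ± 15.7 (SD, n = 3) in Ctrl and 8.23 ± 3.35 and 34.3 ± 16.1 in CIA, and did not pass. Oas1b and Oas1c, which are not members but are on the pathway list below, did not rise. Their log2 fold changes were -0.0004 and -0.54, and neither passed.

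Among the nucleic acid sensors, 4 of 6 were higher in CIA, and Zbp1 and Ifi204 passed the criterion. Zbp1 (chromosome 2, 173206612 to 173218923) encodes a sensor of Z-form nucleic acid that can start necroptosis. It was 4.40, 3.15 and 4.31 in Ctrl and 8.74, 8.55 and 5.94 in CIA. All CIA libraries were above all Ctrl libraries, with a log2 fold change of 0.95 ± 0.24 and an adjusted p of 0.138 by limma. Ifi204 (chromosome 1, 173747293 to 173766943), a cytosolic DNA sensor of the PYHIN family, was 3.81, 2.34 and 4.49 in Ctrl and 10.7, 6.17 and 6.04 in CIA, a log2 fold change of 1.08 ± 0.34 without overlap. Dhx58, the RIG-I-like receptor LGP2, was 3.17 ± 0.19 (SD, n = 3) in Ctrl and 5.07 ± 0.30 in CIA, and its log2 fold change of 0.66 was just under the threshold. Ifi203, the most abundant sensor gene, was 51.1 ± 5.52 in Ctrl and 41.3 ± 7.60 in CIA and did not pass.

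The ISG15 and ubiquitin role went both ways. Herc6 (chromosome 6, 57581000 to 57664632), the main ISG15 ligase of the mouse, was the only member past the criterion downward, at 8.01, 8.10 and 6.94 in Ctrl and 4.79, 5.25 and 3.39 in CIA. Its groups were well apart, with a log2 fold change of -0.78 ± 0.22 and an adjusted p of 0.163 by limma. Isg15 itself was 40.2, 30.1 and 16.7 in Ctrl and 52.3, 29.1 and 27.2 in CIA, and the groups overlapped. The partners Dtx3l, a ubiquitin ligase, and Parp9, an ADP-ribosyltransferase, had log2 fold changes of 0.55 and 0.48, with an unadjusted p under 0.05 but under the fold threshold. They overlap each other on opposite strands, and the library kit does not mark the strand. Trim30a, the most abundant gene of this role and a negative regulator of Toll-like receptor signalling, was 58.5 ± 10.7 (SD, n = 3) in Ctrl and 52.7 ± 1.86 in CIA.

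The IFIT genes, whose products bind foreign RNA and block its translation, included no member past the criterion. Ifit2 was nearly the same in the 3 Ctrl libraries, at 41.4, 42.9 and 41.0, and lower in CIA, at 27.2, 29.9 and 25.7. Its log2 fold change of -0.60 ± 0.11 had the smallest p of all members but missed the fold threshold, with an adjusted p of 0.0700 by limma. Ifit3, the most abundant of the IFIT genes, was 55.0, 41.9 and 42.9 in Ctrl and 71.5, 121 and 22.6 in CIA, so that 1 CIA library was the highest and another the lowest of all 9. Its near copy Ifit3b, with which it shares 51.2% of its 50-base windows, followed the same order at a lower level, with 4.32, 6.55 and 1.07 in CIA.

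The IRF and STAT factors were all higher in CIA on average, and none passed. Stat2 was 11.7 ± 0.83 (SD, n = 3) in Ctrl and 16.5 ± 2.91 in CIA, a log2 fold change of 0.49 without overlap, and the DNA-binding part of ISGF3, Irf9, was 36.3 ± 7.50 and 38.1 ± 1.24. Irf7, which amplifies interferon alpha production and was the most abundant of the 3, was 58.3, 37.0 and 34.7 in Ctrl and 83.1, 60.7 and 32.9 in CIA. The antiviral effectors had no member past the criterion, with 5 of 8 higher and 3 lower. Samd9l, a restriction factor that limits growth of blood cells, was 105, 86.4 and 74.6 in Ctrl and 65.5, 50.2 and 54.1 in CIA, a log2 fold change of -0.64 without overlap. The dynamin-like Mx1 and Mx2 genes, of which the annotation lists Mx2 as a polymorphic pseudogene, were listed at 0 in Ctrl 2 and scattered between 0.748 and 3.55 elsewhere in Ctrl and CIA. Of the other induced genes, Ifi44 (chromosome 3, 151730922 to 151749960), an induced cytoplasmic protein, was 6.84, 3.56 and 4.60 in Ctrl and 9.20, 7.46 and 8.06 in CIA. Its log2 fold change was 0.76 ± 0.27. The other members had log2 fold changes between -0.13 and 0.60 and did not pass. They were the RNA sensors Ifit1, Ifih1 (MDA5) and Eif2ak2 (the kinase PKR), the ISG15 protease Usp18, the ubiquitin ligase Trim25, the ADP-ribosyltransferase Parp14, the nucleotide kinase Cmpk2, the tethering factor Bst2, Slfn5, Ifi27l2a, Ifi35, Rtp4 and the secreted glycoprotein Lgals3bp. Eif2ak2 was at the lower end at 3.10 ± 0.65 (SD, n = 3) in Ctrl and 2.81 ± 0.50 in CIA, and Cmpk2 at the upper end at 21.5 ± 8.73 and 32.3 ± 10.9. Of these, Parp14 alone had an unadjusted p under 0.05, at 44.9 ± 6.22 and 59.3 ± 9.35. Parp14, Eif2ak2, Cmpk2, Ifit2, Samd9l, Stat2, Irf9, Dhx58, Dtx3l, Parp9, Oas1b, Oas1c, Oas2, Oas3, Rsad2, Mx1 and Mx2 were named after their values were seen.

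**Figure D2:**
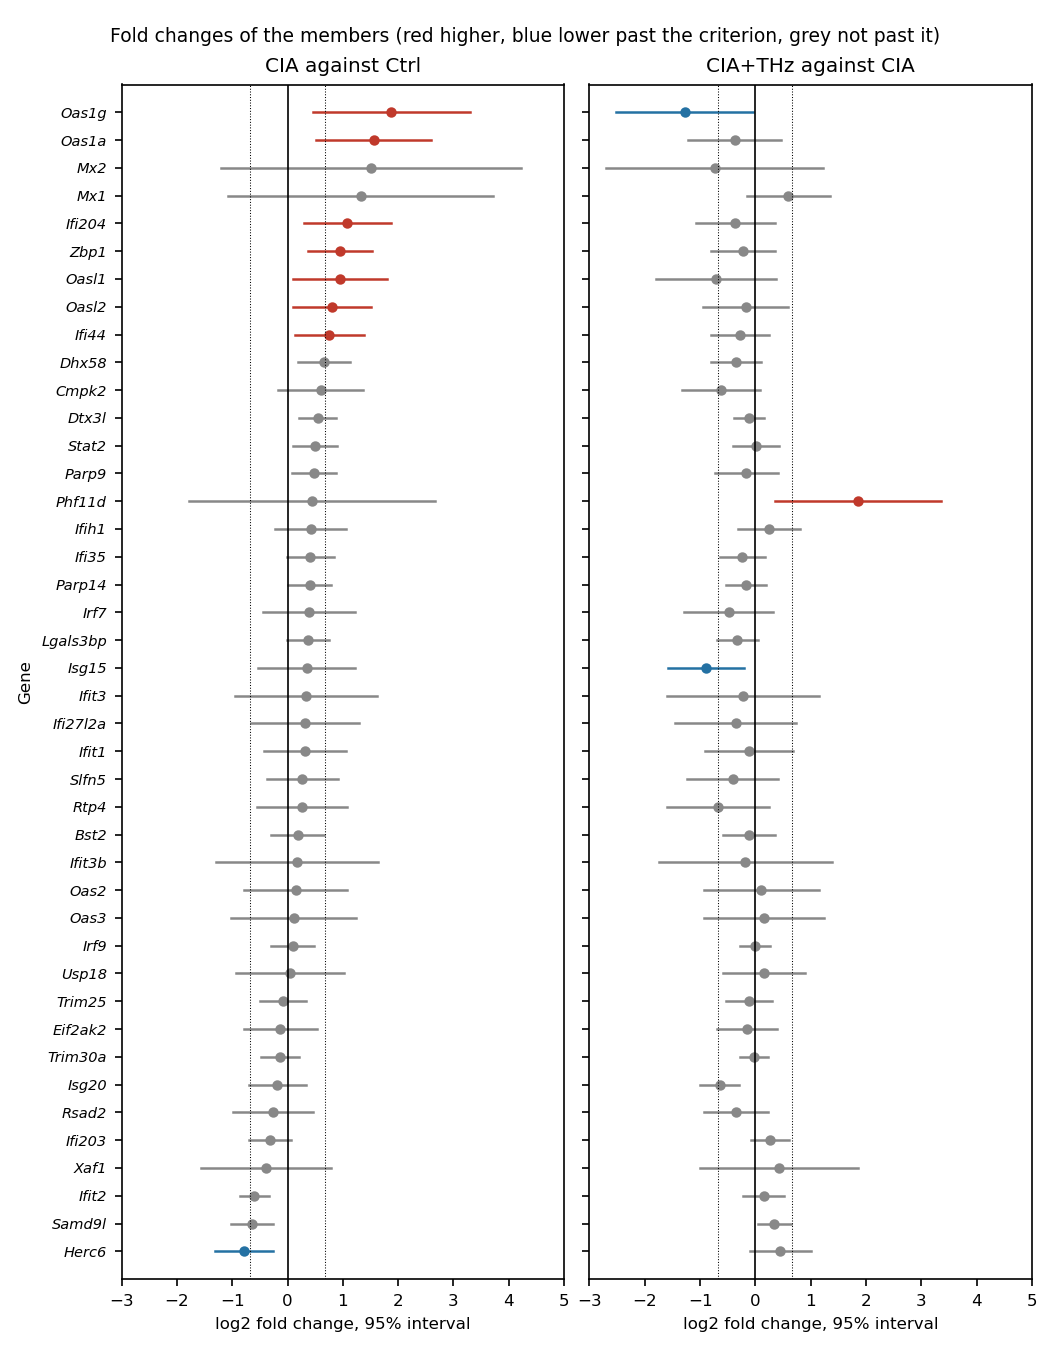
Points are log2 fold changes of the 42 members on the log2(rescaled FPKM + 0.1) scale and lines their 95% intervals from limma, with the members in the order of CIA against Ctrl in both panels and dotted lines at the fold threshold of 0.67. Most points lie right of 0 on the left and left of 0 on the right, with most intervals crossing 0 in both.

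Markers of other cell types moved in the same comparison. The summed level of 10 classical monocyte markers was 3162 to 3506 in Ctrl and 5505 to 6085 in CIA, with 10 of 10 higher and 7 past the criterion. The NK cell markers summed to 142 to 184 in Ctrl and 50.2 to 114 in CIA, with 7 of the 7 tested lower and 4 past the criterion. The immature neutrophil markers summed to 296 to 510.2 and 547 to 1480, with 8 of 9 higher, 1 lower and 3 past the criterion. The lower marker was Lcn2, at 333, 413 and 243 in Ctrl and 182, 317 and 261 in CIA. The markers of plasmacytoid dendritic cells, known as strong producers of type I interferon, went both ways, with 4 of the 8 tested higher, 4 lower and a median log2 fold change of -0.16. Ly6d, which passed upward, makes up most of their sum, at 72.0, 59.0 and 86.1 in Ctrl and 112, 159 and 96.8 in CIA, while Ccr9 passed downward. Others were near 0, such as Siglech at 1.40, 0 and 0.996 in Ctrl and 0, 0.608 and 0.235 in CIA. These counts therefore say little about plasmacytoid dendritic cells. The T cell markers were lower in 11 of 11, with none past the criterion, and the B cell markers were higher in 8 of 10 and lower in 2, with 1 past it. The part of these shifts in the levels of the members was not tested. Among the members past the criterion, Zbp1 and Oas1a stayed past it whichever of the 6 libraries was left out. Ifi204 missed it without CIA 1 (log2 fold change 0.81), Oas1g without CIA 1 (1.79) or CIA 2 (1.78), and Herc6 without CIA 3 (-0.60). Ifi44 missed it without Ctrl 2, Ctrl 3, CIA 1 or CIA 3, with log2 fold changes of 0.54 to 0.77. Oasl2 missed it without Ctrl 2, Ctrl 3, CIA 1 or CIA 2 (0.62 to 0.74), and Oasl1 in every case but without CIA 3 (0.63 to 1.01). The number of members past the criterion was 4 higher and 1 lower without Ctrl 2 or without CIA 2, and 11 higher and 0 lower without CIA 3. For these settings the numbers of all genes are not given, so these counts cannot be read as particular to the members. Without CIA 1 the number of members was 2 higher and 2 lower, beside 502 higher and 569 lower of all genes. With all libraries it was 7 and 1 beside 592 and 526.

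In CIA+THz against CIA, which sets irradiated against untreated arthritic mice, the members leaned downward on the rescaled values. Of the 42 members, 12 were higher in CIA+THz and 30 lower, with a median log2 fold change of -0.17, against 52.9% of all genes higher, 47.1% lower and a median of 0.03. Past the criterion were Isg15 and Oas1g, which were lower, and Phf11d, which was higher. These are 7.14% of the members beside 4.54% of all genes, and by direction 4.76% beside 1.6% lower and 2.38% beside 2.94% higher. At an unadjusted p under 0.05 alone, 2 members (4.76%, beside 5.89% of all genes) were higher and 3 (7.14%, beside 7.33%) lower, or 11.9% beside 13.2% in either direction. By limma 0 members and 0 of all genes tested had an adjusted p under 0.05, and the smallest adjusted p of a member was 0.210. The groups did not overlap for 4 members that were higher and 2 that were lower, beside 9.38% and 10.2% of all genes. This comparison shares the CIA libraries with CIA against Ctrl, so that the values of the members in the 2 comparisons are not independent.

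Isg15 (chromosome 4, 156199424 to 156200818), the ubiquitin-like modifier and the gene with the most motif matches, was 52.3, 29.1 and 27.2 in CIA and 24.4, 15.4 and 17.1 in CIA+THz. All CIA+THz libraries were below all CIA libraries by a narrow margin, and the log2 fold change was -0.89 ± 0.29 with an adjusted p of 0.289 by limma. Oas1g was 1.64, 0.363 and 0.576 in CIA+THz after 2.12, 2.15 and 1.46 in CIA, and CIA+THz 1 overlapped the CIA range. Its log2 fold change was -1.28 ± 0.52. The other Oas1 gene, Oas1a, was 11.7, 10.6 and 6.01 in CIA+THz and 12.4 ± 4.36 (SD, n = 3) in CIA, and did not pass. Phf11d (chromosome 14, 59347407 to 59365470) was listed at 0.402, 0 and 0.183 in CIA and at 0.955, 0.685 and 0.705 in CIA+THz, which gave a fold change of 1.85 ± 0.63 in log2. These levels are under 1 in every library, and the CIA+THz libraries were the deeper ones.

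Isg20 was lower in CIA+THz than in CIA in every library (values above), but its log2 fold change of -0.65 ± 0.15 stayed just under the threshold, with an adjusted p of 0.210 by limma. Samd9l, at 78.2, 65.6 and 71.3 in CIA+THz, was above all CIA libraries, narrowly so in its lowest library, and its log2 fold change of 0.35 was under the threshold. Herc6, at 7.47, 5.40 and 5.52, had a log2 fold change of 0.45 and did not pass. Zbp1, Ifi204, Ifi44, Oasl1 and Oasl2, which had passed upward in CIA, had log2 fold changes between CIA+THz and CIA of -0.22, -0.37, -0.28, -0.71 and -0.18, and none passed. Of the members named without values in CIA against Ctrl, Rtp4 and Ifih1 were the extremes, at -0.67 and 0.25, and none passed. For Zbp1 the 95% interval ran from -0.80 to 0.36. In the same comparison all 10 classical monocyte markers were lower, their sum being 3653 to 3940 in CIA+THz, and 3 passed the criterion. The 10 mature neutrophil markers were also all lower, at sums of 10556 to 12013 in CIA+THz and 14260 to 18452 in CIA, and 2 passed. The 8 platelet markers were all lower as well, with a median log2 fold change of -0.44 and none past the criterion. Conversely, all 11 T cell markers were higher, at sums of 364 to 492 in CIA+THz and 298 to 324 in CIA, with no overlap between the groups for 8 of them and 1 past the criterion. All 7 NK cell markers tested were higher too, at sums of 92.9 to 147 and 50.2 to 114, and 2 passed. B cell markers were higher in 8 of 10 and lower in 2, with none past the criterion. Of the erythroid markers 3 were higher and 4 lower, with a median of -0.02, and Alas2, which did not pass, was at 47174 to 65083 in CIA+THz and 86779 to 97383 in CIA. Their part in the lower Isg15 and Isg20 levels was not tested.

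The sign of the members' median in CIA+THz against CIA depended on the scale, but its place below that of all genes did not. With FPKM as deposited the median log2 fold change of all genes moved up by 0.27, from 0.03 to 0.29, the median of the members moved from -0.17 to 0.11, and 26 members were higher and 16 lower. The 3 members past the criterion were then all higher, where 1 of 3 had been, and across all genes the share of calls that were higher was 94.5% instead of 64.7%. Isg15 kept its direction on that scale, with a log2 fold change of -0.61, but missed the criterion. Leaving out 1 library changed each of the 3 calls. Isg15 missed the criterion without CIA 1, CIA+THz 2 or CIA+THz 3 (-0.59 to -0.83), Phf11d without CIA+THz 1 (1.71) or CIA+THz 3 (1.91), and Oas1g in every case but without CIA+THz 1 (-0.87 to -1.45). The number of members past the criterion was 1 higher and 7 lower without CIA 3, beside 500 and 245 of all genes, and 0 higher and 1 lower without CIA+THz 3, beside 288 and 196.

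**Figure D3:**
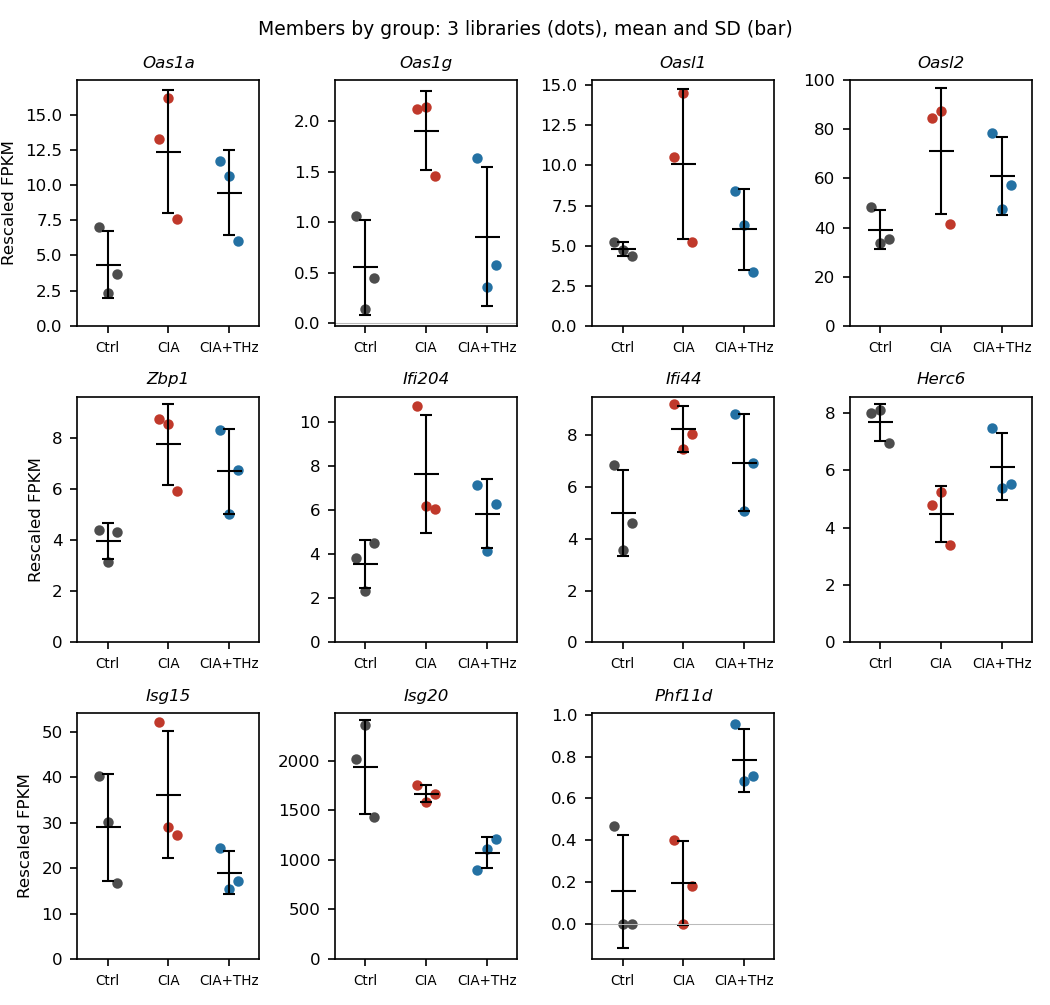
Rescaled FPKM of the 11 members described in full, with 1 dot per library, the mean and the SD of the 3 libraries of each group, and a linear axis that includes 0. The CIA mean lies above that of Ctrl in the OAS, Zbp1, Ifi204 and Ifi44 panels and below it for Herc6, and CIA+THz lies below both other groups for Isg20.

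In CIA+THz against Ctrl, 26 members were higher and 16 lower, beside 53.7% and 46.3% of all genes, and the median log2 fold change was 0.14 against 0.04 for all genes. Past the criterion were Oas1a, Zbp1 and Phf11d upward and Isg20 downward, 9.52% of the members beside 7.88% of all genes, with 7.14% beside 4.64% higher and 2.38% beside 3.24% lower. At an unadjusted p under 0.05 alone, 7 members (16.7%, beside 8.39%) were higher and 3 (7.14%, beside 9.69%) lower, or 23.8% beside 18.1% in either direction, and no member passed the adjustment in limma, beside 0.105% of all genes. Isg20 (chromosome 7, 78913424 to 78920396) was 1938 ± 471 (SD, n = 3) in Ctrl and 1073 ± 160 in CIA+THz, without overlap. Its log2 fold change was -0.83 ± 0.22 and stayed past the criterion whichever of the 6 libraries was left out, but it was -0.53 with FPKM as deposited. Cell markers moved here too. Of the 10 mature neutrophil markers 9 were lower and 1 higher, with a median log2 fold change of -0.67 and 5 past the criterion. Classical monocyte markers were higher in 8 of 10, with 3 past it, and B cell markers in 10 of 10, with 3 past it. The part of these shifts in the Isg20 level was not tested. Zbp1, at 8.31, 5.01 and 6.74 in CIA+THz, had a log2 fold change of 0.73 ± 0.25 without overlap, and Oas1a one of 1.18 ± 0.42 with overlap. Phf11d, at 0.468, 0 and 0 in Ctrl, had one of 2.29 ± 0.75. Zbp1 missed the criterion without Ctrl 2, CIA+THz 1 or CIA+THz 3, Oas1a without Ctrl 2, Ctrl 3, CIA+THz 1 or CIA+THz 2, and Phf11d without Ctrl 2, Ctrl 3 or CIA+THz 1. The count was 0 higher and 1 lower without Ctrl 2 or without CIA+THz 1, and 4 higher and 3 lower without Ctrl 3. The numbers of all genes for these settings are not given, so these counts cannot be read as particular to the members. With FPKM as deposited the count of members was 8, all higher, where the median of all genes was 0.33. The share of calls that were higher across all genes was then 93% instead of 58.9%.

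Across all 3 groups, limma's moderated F-test gave 14 of the 42 members a p under 0.05 before adjustment, 33.3% beside 21.3% of all genes. None had an adjusted p under 0.05, beside 2.53% of all genes, and the smallest adjusted p was 0.0788 for Isg20. Without Ctrl 2 the count of members was 7, and that of all genes is not given beside it.

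The mice of a group differed from one another over the members as a set. CIA 3 was the lowest of the CIA libraries for 32 members and the highest for 1, whereas over all genes tested with distinct values it was the lowest for 32.8%. CIA+THz 1 was the highest of its group for 32 members, beside 31% of all genes, and Ctrl 1 for 28, beside 32.1%. On the log2 scale the median member lay 0.32 below its group's mean in CIA 3. In CIA+THz 1 and Ctrl 1 the median member lay 0.31 and 0.26 above the group's mean. The same median over all genes was within 0.02 of 0 in every library, which the rescaling largely fixes in advance. The mean log2 level of the members was 3.97, 3.38 and 3.66 in the Ctrl libraries, 4.23, 4.24 and 3.62 in CIA and 4.19, 3.68 and 3.78 in CIA+THz. CIA 3 therefore lay at the level of Ctrl 3, and CIA+THz 1 at that of CIA 1 and CIA 2. CIA+THz 1 was also the deepest library, at 1.87 times Ctrl 1, whereas Ctrl 1 was the reference of 1 and the shallowest. The part of depth in this order was not tested, and no sample was left out or regrouped for it.

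**Figure D4:**
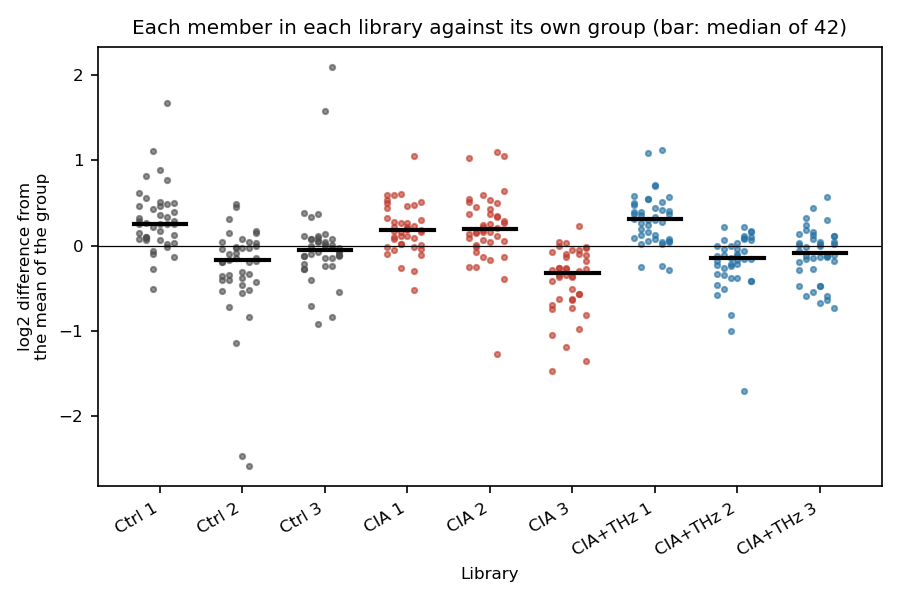
Each point is a member's log2(rescaled FPKM + 0.1) in a library minus the mean of the 3 libraries of its group, and the bar is the median of the 42 members. The bars sit at -0.32 for CIA 3, 0.31 for CIA+THz 1 and 0.26 for Ctrl 1.

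Some members share genome or sequence with other genes, which limits their values. Besides the OAS1 and IFIT3 pairs and Dtx3l with Parp9, the annotation overlaps Irf7 with Phrf1, Irf9 with Rnf31, Ifi203 with Mndal and Rtp4 with Masp1, all of which are in the table. No 50-base window of Ifi203 occurred in Ifi204.

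Further genes of the pathway were followed from a list of 103 symbols in the table, of which 83 were tested. This list was chosen with earlier results of these data known, so its shares beside all genes are not an independent test. Of 21 interferon genes, 20 were listed at 0 in all 9 libraries, among them all interferon alphas and Ifnb1, and Ifng was above 0 only in Ctrl 1, CIA+THz 1 and CIA+THz 2. The receptor genes were strongly expressed. Ifnar1 had means of 139 ± 19.6 (SD, n = 3) in Ctrl, of 175 ± 19.2 in CIA and of 166 ± 13.5 in CIA+THz, and Ifnar2 was 157 ± 36.3, 162 ± 14.6 and 140 ± 12.4. Neither passed in any comparison, with log2 differences between CIA and Ctrl of 0.33 for Ifnar1 and 0.07 for Ifnar2.

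In CIA against Ctrl, 12 of the 83 pathway genes tested passed the criterion upward (14.5%, beside 4.79% of all genes) and 5 downward (6.02%, beside 4.25%). Ifitm3, which keeps viruses from leaving endosomes, was 338, 297 and 241 in the Ctrl libraries, 705, 667 and 594 in the CIA libraries and 534, 423 and 439.6 in the CIA+THz libraries. Its 3 groups did not overlap, with a log2 fold change of 1.18 ± 0.16 between CIA and Ctrl. Trex1, the exonuclease that clears cytosolic DNA, was 6.83 ± 2.23, 15.6 ± 1.94 and 11.4 ± 1.27 (SD, n = 3) in Ctrl, CIA and CIA+THz. Irf5, a factor downstream of Toll-like receptors, was 27.9 ± 6.75, 48.6 ± 3.64 and 44.5 ± 4.70. Between CIA and Ctrl, Ms4a4c differed by 0.74 and the PYHIN gene Ifi207 by 1.85 in log2 fold change. Downward, Ifnlr1, the receptor of the lambda interferons, was 12.5, 11.5 and 12.97 in the Ctrl libraries, 6.40, 7.00 and 6.31 in the CIA libraries and 4.37, 6.55 and 5.48 in the CIA+THz libraries. The Schlafen gene Slfn4 was 199 ± 35.3, 109 ± 18.5 and 95.7 ± 22.0 in the same order. Irf5 and Ms4a4c missed the fold threshold without Ctrl 2, at 0.62 and 0.61.

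In CIA+THz against CIA, 1 pathway gene passed in each direction (1.2%, beside 2.94% of all genes higher and 1.6% lower). The double-stranded RNA receptor Tlr3 was listed at 0, 0 and 0.111 in CIA and at 0.641, 0.440 and 0.187 in the deeper CIA+THz libraries. Ifitm2, a relative of Ifitm3, was 938, 1281 and 1128 in CIA and 738, 734 and 615 in CIA+THz. Its log2 fold change was -0.68 ± 0.15, which missed the criterion without CIA 2, CIA 3 or CIA+THz 3, and with FPKM as deposited. In CIA+THz against Ctrl, 7 pathway genes passed upward (8.43%, beside 4.64%) and 2 downward (2.41%, beside 3.24%). In log2 fold change, Ifitm3 (0.68), Ms4a4c (0.72), Irf5 (0.70), Ifi207 (1.31), Trex1 (0.78) and Tlr3 (1.94) were among the higher genes, and Ifnlr1 (-1.18) and Slfn4 (-1.06) were lower. Of the upward calls, Ifitm3 (0.57), Ms4a4c (0.66), Irf5 (0.66), Ifi207 (1.16) and Trex1 (0.74) missed the criterion without CIA+THz 1. So did Ms4a4c, Irf5 and Trex1 without Ctrl 2, Ifitm3 and Ms4a4c without Ctrl 3, Ifi207 and Trex1 without CIA+THz 2, and Irf5 without CIA+THz 3. Across the 3 groups 31 pathway genes (37.3%, beside 21.3% of all genes) had an unadjusted p under 0.05. Of the 83, Ifitm3, Ifnlr1, Slfn4, Trex1 and Ms4a4c (6.02%, beside 2.53%) had an adjusted p under 0.05 by limma, between 0.0127 and 0.0437.

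**Figure D5:**
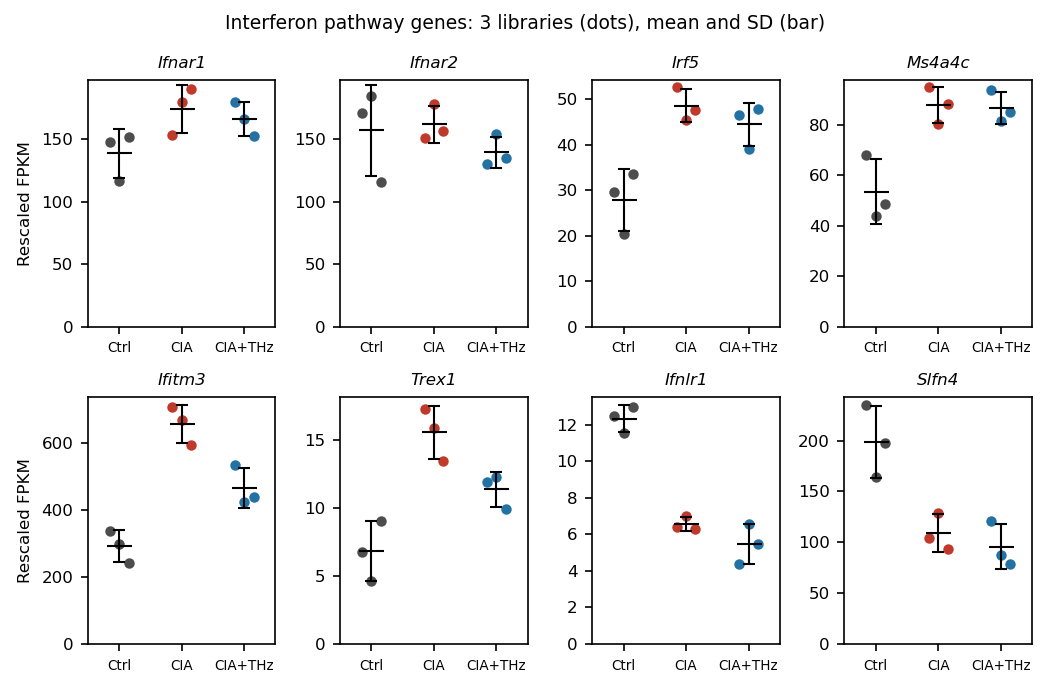
Rescaled FPKM of 8 pathway genes that are not members, with 1 dot per library, the mean and the SD of the 3 libraries of each group, and a linear axis that includes 0. Irf5, Ms4a4c, Ifitm3 and Trex1 are higher in CIA than in Ctrl without overlap, Ifnlr1 and Slfn4 lower, and the receptor gene Ifnar2 overlaps between all groups.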

How the data were processed

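The authors sequenced blood leukocyte RNA of 9 mice (Ctrl, CIA and CIA+THz, 3 libraries per group) as paired-end reads with an Illumina TruSeq RNA kit, and deposited 1 FPKM value per gene and library. The submitters' processing notes name bcl2fastq 2.0, HISAT2, StringTie, DESeq2 and mm10, with no roles, and the annotation and filters are not given in the sources used here. FPKM holds no counts, so no interval for counting error could be given, and low members are the least precise. No sample column was left unused. Groups follow the sample labels. Libraries of a group are different mice, so that replicate numbers pair no animals (correlations of same-numbered deviations were -0.052 to 0.031).

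The columns were rescaled by median-of-ratios factors, for which the 10312 genes detected in all 9 libraries were used. The 12366 genes with a mean of at least 0.1 were tested on log2(rescaled FPKM + 0.1) with limma 3.58.1 in R 4.3.3 (lmFit, eBayes with trend), each pair of groups on its 6 libraries. The criterion, which the study also used, was a log2 fold change beyond 0.67 in size with p under 0.05 before adjustment, with Benjamini-Hochberg counts over all genes beside it, and all p-values quoted are from this fit. A moderated F-test compared the 3 groups. Coordinates are those of GENCODE on GRCm38 (mm10), and promoters those of RefSeq, matched by symbol.

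The members, roles, pathway list and markers were chosen with earlier results of these data known. Named in full were members past the criterion, the most abundant member of each role, the paralogs, and up to 8 pathway genes past the criterion per comparison by smallest p, with Ifnar1 and Ifnar2. A gene of the pathway list is not reported here by name. The pairwise fit was tested on simulated data with an assumed depth and planted changes larger than most fold changes described here. That test does not cover smaller changes. Alternatives were FPKM as deposited, a pseudocount of 1, a mean of at least 1, no filter, no trend, all 9 libraries in 1 fit, a replicate block, leaving out 1 library at a time, adjusted p, no fold criterion, and an analysis of variance on linear values.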

Additional observations from a re-analysis of the deposited data

How the results depend on the processing

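The number of members past the criterion rested mostly on the adjustment and on single mice. With the Benjamini-Hochberg adjustment by limma it was 0 in each of the 3 pairs of groups and across the 3 groups, where 15, 5, 10 and 14 had an unadjusted p under 0.05. The 15, 5 and 10 are the counts without the fold criterion in CIA against Ctrl, CIA+THz against CIA and CIA+THz against Ctrl, beside 8, 3 and 4 with it. Leaving out 1 library gave 4 to 11 in CIA against Ctrl, 1 to 8 in CIA+THz against CIA, 1 to 7 in CIA+THz against Ctrl and 7 to 17 across the 3 groups. The median log2 fold change of the members then ranged from 0.16 to 0.58, from -0.37 to -0.06 and from -0.05 to 0.25 in the 3 pairs, and the value of -0.05 came without CIA+THz 1. With FPKM as deposited the count in CIA+THz against Ctrl was 8 and the median of the members 0.45 instead of 0.14, while that of all genes was 0.33 instead of 0.04. The analysis of variance on linear values gave 9 members across the 3 groups. With the replicate number as a block the count in CIA+THz against CIA was 5, and it was 8, 5 and 15 in CIA against Ctrl, CIA+THz against Ctrl and across the 3 groups, but the samples share only a number. Counts of all genes are not set beside these ranges and counts, which therefore cannot be read as particular to the members. For the named genes past the criterion, the alternatives other than the adjusted p gave 384 values that kept their direction and stayed past it. A further 74 kept the direction but missed it, and none reversed. Dropping the fold criterion could not make such a gene miss it. With the adjusted p, none of these genes passed in any pair of groups. The depth behind low members such as Phf11d, Oas1g, Mx1 and Mx2 is unknown, and their levels are the most limited by it.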
